A study of Mus musculus with 16 samples.

Results

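The 35 genes described here encode the enzymes of fatty acid oxidation and the classical targets of the nuclear receptor PPAR alpha, together with Ppara and its partner Rxra, measured by RNA-seq in mouse kidney. They were taken as a list of named genes of the pathway, chosen with earlier results of these data known, and all 35 were found among the 13430 genes of the table. All were female C57BL/6 mice of 2 to 3 months, and 1 slice, 3 mm thick and taken from the middle of the kidney, gave 1 library per mouse. The 4 groups of 4 mice were IRR(-/-) on bicarbonate, IRR(-/-) on water, wild type on bicarbonate and wild type on water. IRR is the insulin receptor-related receptor, encoded by Insrr, a receptor tyrosine kinase that senses alkaline pH outside the cell. Bicarbonate was 250 mM NaHCO3 at pH 8.5 in the drinking water for 7 days, and every group, controls included, had fasted for 12 h before the kidney was taken. No fed group was among the samples, so each level below is a level in a fasted kidney. The part of Insrr that the knockout lacks, the parentage of the wild-type mice and any sequencing batch are not given in the labels. A difference between genotypes therefore cannot be told apart from one of parentage or batch. Each p-value sets a difference of group means against the spread among mice within the groups.

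PPAR alpha is a transcription factor that is activated by fatty acids and, bound to DNA as a pair with a retinoid X receptor, switches on genes for their breakdown. Its activity rises in fasting, when the body shifts from glucose to fat. The proximal tubule of the kidney takes most of its energy from fatty acids, which are activated to acyl-CoA, carried into mitochondria as carnitine esters and shortened there in the beta-oxidation spiral, while very long chains are shortened first in peroxisomes.

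Transcript of Insrr was still measured in the knockout libraries, at lower levels. Insrr had 3.68, 3.31, 3.71 and 3.61 RPKM in the 4 IRR(-/-) kidneys on bicarbonate and 3.43, 3.62, 4.11 and 3.34 RPKM in those on water, against 4.85, 4.98, 4.20 and 6.50 RPKM in wild-type kidneys on bicarbonate and 6.73, 4.82, 6.34 and 5.83 RPKM in wild-type kidneys on water. RPKM scales the reads of a gene to its transcript length and to the depth of the library, so levels of different genes can be set side by side. No library of one genotype overlapped with a library of the other. Median RPKM lay between 8.44 and 8.92 in the 16 libraries, while the sum over all genes was 2.41e+06 to 2.93e+06 in the knockout and 1.36e+06 to 1.60e+06 in wild type. The mitochondrially encoded genes took 82.6 to 84.9% of that sum in the knockout and 69.6 to 74.2% in wild type, and whether this had a part in the genotype differences below was not tested.

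PPAR alpha with a retinoid X receptor binds a direct repeat of AGGTCA with a spacing of 1 base. The promoters of 27 of the 35 genes were in the RefSeq promoter table (build GRCm38.p6), as 29 windows from 250 bases before to 50 bases after a transcription start. Those of Cyp4a10, Cyp4a14, Angptl4, Vnn1, Crat, Acaa2, Decr1 and Hsd17b4 were missing, so the search does not cover these genes. AGGTCANAGGTCA was searched on both strands with up to 2 mismatches in its 12 fixed letters. It was found in 4 of the 29 windows, those of Slc25a20, Etfa, Plin2 and a second start of Rxra, and in 3.86% of all 32851 windows of the table. With at most 1 mismatch it was in 0 of the 29 windows and in 0.554% of all windows. The 4 windows with a match follow, 5′ to 3′ on the strand of the gene, because they show where the letters stand relative to the start, and capitals mark the match.
Slc25a20, chr9:108661886-108662185, plus strand: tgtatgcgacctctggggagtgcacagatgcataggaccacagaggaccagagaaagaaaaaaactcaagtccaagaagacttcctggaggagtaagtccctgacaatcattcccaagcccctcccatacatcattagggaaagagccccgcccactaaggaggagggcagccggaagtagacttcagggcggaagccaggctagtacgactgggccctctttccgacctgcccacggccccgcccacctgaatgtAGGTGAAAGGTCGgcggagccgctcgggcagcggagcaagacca
Etfa, chr9:55512194-55512493, minus strand: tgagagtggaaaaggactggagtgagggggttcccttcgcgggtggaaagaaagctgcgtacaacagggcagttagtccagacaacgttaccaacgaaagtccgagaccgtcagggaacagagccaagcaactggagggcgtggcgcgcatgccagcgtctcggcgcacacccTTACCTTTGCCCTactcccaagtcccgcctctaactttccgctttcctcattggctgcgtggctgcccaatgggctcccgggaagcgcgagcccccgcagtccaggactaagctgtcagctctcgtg
Plin2, chr4:86670010-86670309, minus strand: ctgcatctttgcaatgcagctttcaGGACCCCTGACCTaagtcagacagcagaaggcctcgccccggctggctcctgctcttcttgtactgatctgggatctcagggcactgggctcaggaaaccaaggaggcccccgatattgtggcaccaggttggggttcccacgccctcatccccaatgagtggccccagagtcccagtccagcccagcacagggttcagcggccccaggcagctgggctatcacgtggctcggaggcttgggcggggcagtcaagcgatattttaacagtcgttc
Rxra, second start, chr2:27709042-27709341, plus strand: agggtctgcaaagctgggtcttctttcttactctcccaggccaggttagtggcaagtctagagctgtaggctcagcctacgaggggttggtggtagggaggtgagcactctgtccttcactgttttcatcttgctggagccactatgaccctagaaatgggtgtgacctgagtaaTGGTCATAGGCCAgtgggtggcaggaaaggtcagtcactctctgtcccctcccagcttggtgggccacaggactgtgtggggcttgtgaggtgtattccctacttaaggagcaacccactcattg
In Slc25a20 the match ran from position 7 to 19 after the start on the strand of the gene, and in Rxra from 75 to 63 bases before it. In Etfa it lay on the opposite strand, 77 to 65 bases before the start. In Plin2 it was also on the opposite strand and lay farthest out, 225 to 213 bases before the start. These matches describe letters and not bound sites.

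Of the 35 genes, 34 were expressed in all 16 kidneys. The highest levels were those of the fatty acid omega-hydroxylases Cyp4a14 and Cyp4a10, with medians over the 16 kidneys of 1367 and 1081 RPKM. Their means were at percentiles 99.8 and 99.7 of all 13430 genes of the table. Acadm, the medium-chain acyl-CoA dehydrogenase of the mitochondrial spiral, followed with a median of 631 RPKM, and Ehhadh, the peroxisomal bifunctional enzyme, with 554 RPKM. Ech1, a dienoyl-CoA isomerase, had a median of 377 RPKM. These 5 genes stood above the other members. The lowest of the 34 were Rxra, at a median of 23.9 RPKM, Acot2, at 24.6 RPKM, Acot1, at 27.4 RPKM, and Ppara itself, at 32.2 RPKM.

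Within the carnitine shuttle the kidneys held more transcript of the 2 transferases than of the carrier between them. Cpt1a, the outer-membrane carnitine palmitoyltransferase, ranged over the 16 kidneys between 108 and 195 RPKM, and Cpt2, the inner-membrane enzyme, between 104 and 197 RPKM. Slc25a20, the carnitine-acylcarnitine translocase, ranged between 47.2 and 94.2 RPKM. Crat, the carnitine acetyltransferase, lay between 60.8 and 105 RPKM. In the mitochondrial spiral the short-chain dehydrogenase Acads was lowest among the acyl-CoA dehydrogenases, at 31.7 to 68.6 RPKM, below the very-long-chain enzyme Acadvl, at 113 to 203 RPKM, and the long-chain enzyme Acadl, at 174 to 345 RPKM. Hadha and Hadhb, the subunits of the trifunctional protein, ranged over 116 to 199 and 159 to 246 RPKM. Among the 34 genes Etfa, the alpha subunit of the electron transfer flavoprotein that takes electrons from all of these dehydrogenases, varied least, with a highest library 1.23 times its lowest. Cyp4a14 varied most, with a ratio of 6.57.

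Eci1, an enoyl-CoA isomerase, was listed at 0 in 12 of the 16 libraries. It had 39.4 RPKM in IRR(-/-) replicate 4 on bicarbonate, 16.6 and 4.61 RPKM in IRR(-/-) replicates 2 and 4 on water, and 6.07 RPKM in wild-type replicate 2 on bicarbonate. It passed the filter on low values (0.5 RPKM or more in 4 libraries or more) through these 4 libraries alone. Since a 0 in such a table may mean that the estimate failed, no difference is given for this gene, although it stays in the counts over all 35 members.

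**Figure D1:**
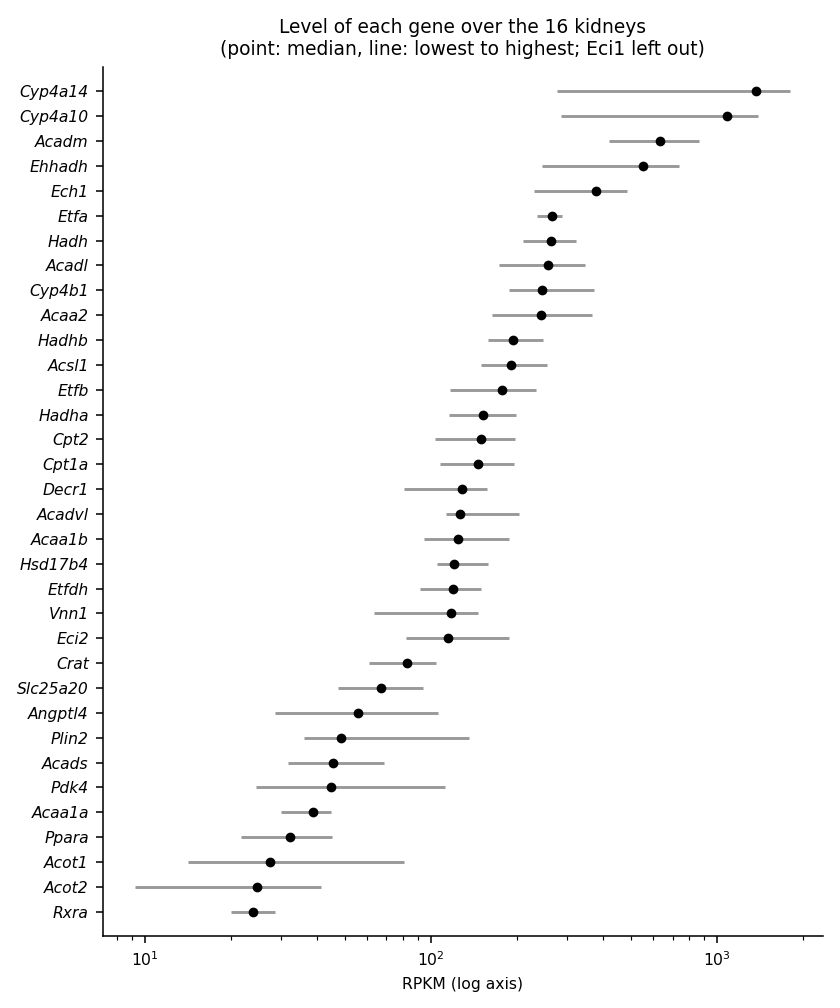
RPKM of 34 of the 35 genes on a log axis, with a point at each gene's median over all kidneys of the 4 groups. A line runs from the lowest to the highest kidney of each gene. Eci1, listed at 0 in 12 libraries, is left out. Cyp4a14 and Cyp4a10 stand highest.

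Ppara did not pass the test in any comparison. Its level was 29.3, 33.0, 29.2 and 39.7 RPKM in IRR(-/-) kidneys on bicarbonate, 27.1, 25.9, 34.1 and 30.6 RPKM in IRR(-/-) kidneys on water, 21.7, 31.2, 37.1 and 35.4 RPKM in wild-type kidneys on bicarbonate and 36.3, 36.5, 45.3 and 27.2 RPKM in wild-type kidneys on water. The 4 groups overlapped. The means were 32.8 ± 4.92, 29.4 ± 3.68, 31.4 ± 6.90 and 36.3 ± 7.38 RPKM in that order of groups (SD, n = 4 each). Rxra was the steadier of the pair, with group means of 24.9 ± 2.38, 24.0 ± 1.57, 23.4 ± 0.757 and 22.4 ± 2.29 RPKM in the same order (SD, n = 4 each).

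Many of the target genes split the wild-type kidneys on water into a low pair and a high pair. Cyp4a10 had 1086, 1082, 1284 and 1008 RPKM in IRR(-/-) kidneys on bicarbonate and 1394, 1138, 948 and 1163 RPKM in IRR(-/-) kidneys on water. In wild-type kidneys it had 863, 1132, 1304 and 702 RPKM on bicarbonate, against 296 and 284 RPKM in replicates 1 and 2 on water and 1078 and 1081 RPKM in replicates 3 and 4 on water. The high pair thus lay within the range of the other 3 groups and the low pair below all of it. Cyp4a14 had 1202 RPKM or more in all 8 IRR(-/-) kidneys, 1032, 1578, 1617 and 728 RPKM in wild-type kidneys on bicarbonate and 289, 275, 1127 and 1313 RPKM in wild-type kidneys on water, with the same 2 kidneys low. Ehhadh had 609, 739, 703 and 506 RPKM in wild-type kidneys on bicarbonate and 245, 272, 553 and 529.6 RPKM in wild-type kidneys on water. Acot2, a mitochondrial acyl-CoA thioesterase, had 11.9, 9.27, 22.5 and 18.9 RPKM in wild-type kidneys on water. The order of the 4 kidneys was thus alike in these genes, a low pair and a high pair. Not every target split so. Pdk4 had 44.4, 24.4, 56.6 and 36.7 RPKM and Plin2 43.7, 36.0, 43.3 and 46.1 RPKM in wild-type kidneys on water. Replicates 1 and 2 were the 2 lowest of all 16 libraries for 16 of the 35 members, namely Rxra, Cpt1a, Slc25a20, Cpt2, Acadl, Hadha, Acaa2, Decr1, Eci2, Etfdh, Ehhadh, Ech1, Acot2, Cyp4a10, Cyp4a14 and Vnn1, and for 3.25% of all genes tested. No other pair of libraries of 1 group was lowest together for more than 2 members.

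The same 2 kidneys stood apart in a gene outside the list. Fabp1, the liver-type fatty acid binding protein, had 10.9 RPKM or more in the 12 libraries of the other groups, against 2.59, 4.24, 14.4 and 14.4 RPKM in wild-type kidneys on water. Markers of the proximal tubule moved in both directions in these 2 kidneys. Of 14 markers, 6 were higher in both low kidneys than in wild-type replicates 3 and 4 on water (Slc34a1, Slc5a2, Slc22a8, Gatm, Keg1 and Miox), 4 were lower in both (Slc22a6, Slc13a3, Slc6a18 and Kap) and 4 were mixed. Their summed level was 12280 and 12780 RPKM in the low kidneys, against 15060 and 17770 RPKM in replicates 3 and 4. Kap, the most abundant, had 5998 and 6299 RPKM in the low kidneys, against 10270 and 13110 RPKM in replicates 3 and 4. The sum of the other 13 was 6287 and 6478 RPKM in the low kidneys, against 4791 and 4654 RPKM in replicates 3 and 4. The part of these markers in the low values was not tested. The genes named in these paragraphs on single kidneys were picked after their values were seen, and in a whole-slice sample fewer cells of a type and less RNA per cell cannot be told apart.

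A further kidney lay at the other end. Wild-type replicate 3 on bicarbonate was the highest of the 16 libraries for 19 of the 35 members, against 10.2% of all genes tested. It was above the gene's own mean over the 16 libraries for 33 of the 35, with a median deviation of 0.41 on the log2 scale. Plin2, the coat protein of lipid droplets, reached 136 RPKM there, against 64.3, 48.8 and 42.4 RPKM in the other wild-type kidneys on bicarbonate, and Pdk4, the kinase that shuts down pyruvate dehydrogenase, reached 112 RPKM, against 62.1, 69.4 and 42.4 RPKM. The proximal tubule gene Kap was at 742.5 RPKM in this library and at 7148 to 9256 RPKM in the other 3 of its group. Its part in the results was not tested beyond the values without this library that are given below.

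**Figure D2:**
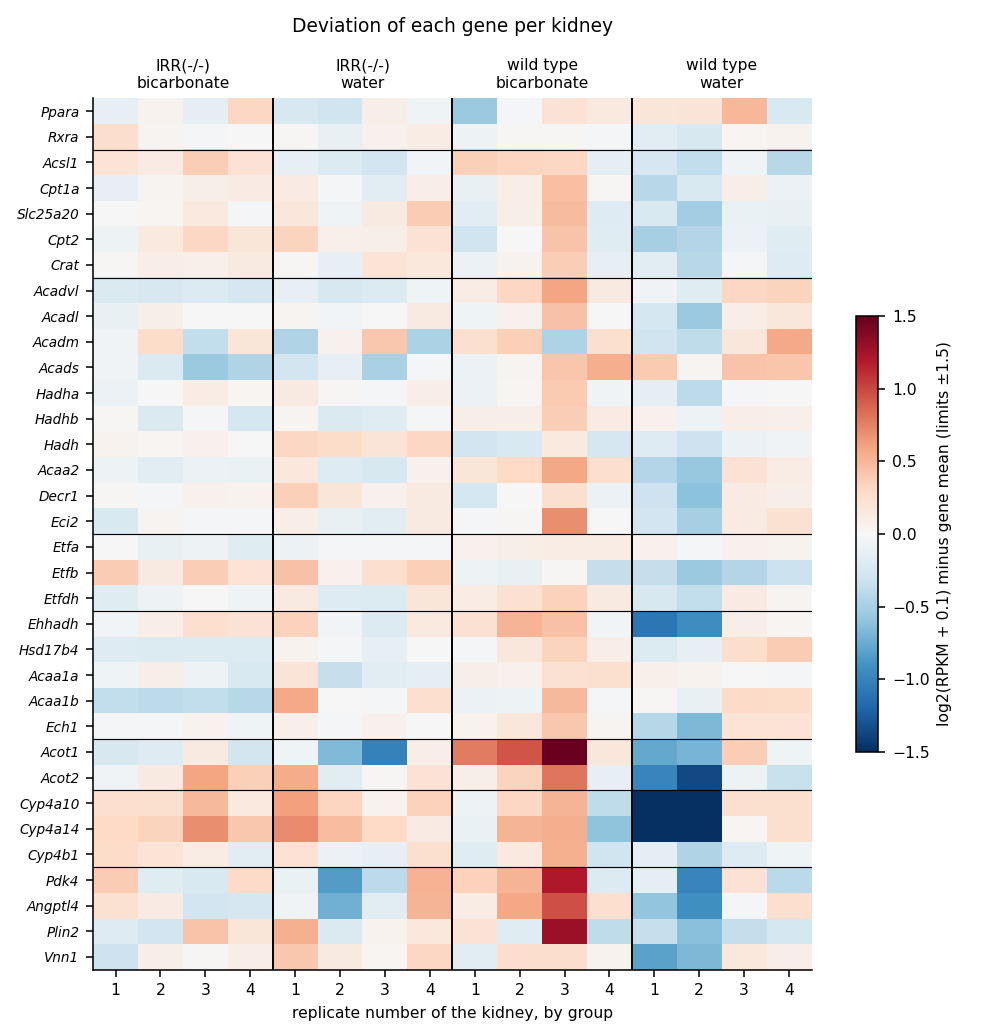
Log2(RPKM + 0.1) of each of 34 genes in each kidney minus that gene's mean over all 16 kidneys, with kidneys in columns by group and genes in rows by role. The columns of wild-type replicates 1 and 2 on water are low for most genes, and wild-type replicate 3 on bicarbonate is high for most.

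**Figure D3:**
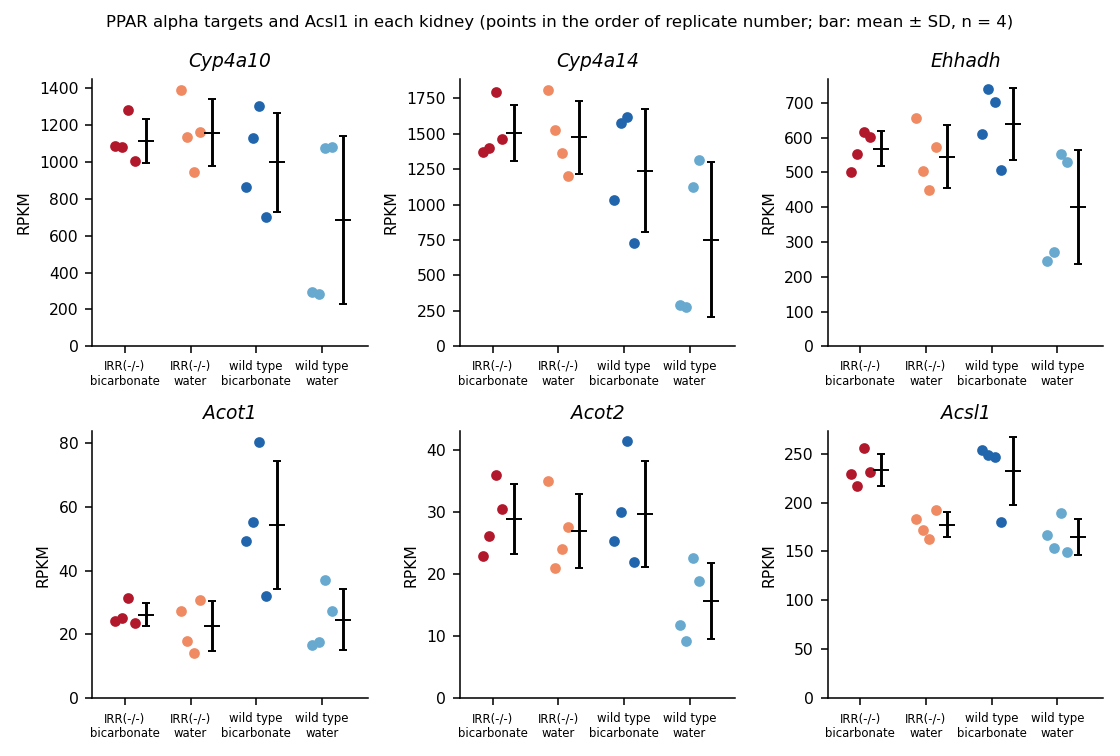
RPKM of 6 genes in each of the 16 kidneys, with points in the order of replicate number within each group and a bar for the mean ± SD (n = 4). Among wild-type kidneys on water, replicates 1 and 2 are the low pair for Cyp4a10, Cyp4a14, Ehhadh, Acot1 and Acot2, and not for Acsl1.

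The members also differed between groups in how much they varied among kidneys. The median within-group SD of log2(RPKM + 0.1) over the 35 genes was 0.13 in IRR(-/-) kidneys on bicarbonate, 0.18 in IRR(-/-) kidneys on water, 0.24 in wild-type kidneys on bicarbonate and 0.23 in wild-type kidneys on water. Over all 12943 genes tested it was 0.17, 0.18, 0.20 and 0.19 in the same order. The members were thus more even than the median gene in IRR(-/-) kidneys on bicarbonate and less even in both wild-type groups, which is a description with no test. Hsd17b4, the second peroxisomal bifunctional enzyme, followed this in part. Its SD was 0.0048 in IRR(-/-) kidneys on bicarbonate and 0.29 in wild-type kidneys on water. In wild-type kidneys on bicarbonate it was 0.15, below the 0.20 of the median gene. Hsd17b4 had 106, 106, 106 and 106 RPKM in IRR(-/-) kidneys on bicarbonate and 127, 120.4, 112 and 122 RPKM in IRR(-/-) kidneys on water. In wild type it had 121, 138, 154 and 131 RPKM on bicarbonate and 106, 112, 147 and 158 RPKM on water.

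The first comparison asked what 7 days of alkali do to these genes in the normal kidney. In wild-type mice, 0 of the 35 members passed an adjusted p of 0.05 in limma, where 0.139% of all genes tested did (18 genes, 5 higher and 13 lower). At an unadjusted p under 0.05, 14 members passed, all of them higher on bicarbonate, where 12% of all genes did and 5.55% were higher. The sign was positive for 32 of the 35, against 48.6% of all genes, and the median log2 difference was 0.28, against -0.01 over all genes. The median was 0.15 without wild-type replicate 3 on bicarbonate. The count at an unadjusted p under 0.05 was 8 without that library, 9 without wild-type replicate 2 on bicarbonate and 6 without wild-type replicate 2 on water. The median was 0.09, with 20 of 35 positive and 1 member at an unadjusted p under 0.05, without both of the low wild-type kidneys on water, an alternative chosen after seeing the data. Proximal tubule markers went the other way in this comparison. Of 14, 13 were lower in sign on bicarbonate, with a median log2 difference of -0.27, 6 were at an unadjusted p under 0.05, and the transporters Slc13a3 and Slc22a8 fell, at -0.57 and -0.30 (adjusted p = 0.0181 and 0.0469). Their summed level was 4927 to 14010 RPKM on bicarbonate and 12280 to 17770 RPKM on water, and their part in the result was not tested.

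Acsl1, Acot1 and Acot2 had the smallest p-values among the members. Acsl1, the synthetase that activates long-chain fatty acids, had 254, 248, 247 and 179.8 RPKM in wild-type kidneys on bicarbonate and 167, 153, 189.6 and 149 RPKM in wild-type kidneys on water. Replicate 4 on bicarbonate was the only one of its group within the range of the water group. The log2 difference was 0.49 ± 0.11 (SE, adjusted p = 0.0826), and without that replicate it was 0.60 (adjusted p = 0.00862), the only case in this comparison in which a member passed when 1 library was left out. Acot1, a cytosolic acyl-CoA thioesterase, had 49.4, 55.2, 80.3 and 32.1 RPKM in wild-type kidneys on bicarbonate and 16.8, 17.6, 37.0 and 27.3 RPKM in wild-type kidneys on water, a log2 difference of 1.14 ± 0.31 (SE, adjusted p = 0.152). Acot2 had 25.3, 30.0, 41.4 and 21.9 RPKM in wild-type kidneys on bicarbonate, against the values on water given above, a log2 difference of 0.96 ± 0.27 (SE, adjusted p = 0.154). The bicarbonate and water ranges overlapped for both thioesterases, each through 1 kidney of each group.

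At an unadjusted p under 0.05, 1 of the 11 mitochondrial spiral members and 0 of the 2 transcription factors passed, where 12% of all genes did. The other 11 of the 14 members at that p came from several steps of the pathway. They were Cpt1a and Crat of the carnitine shuttle, Acaa2 of the mitochondrial spiral, Etfb and Etfdh of electron transfer, Ehhadh and Ech1 of the peroxisome, Cyp4a14, and Pdk4, Angptl4 and Plin2 among the remaining targets. Their log2 differences ran from 0.25 for Crat to 1.01 for Cyp4a14, and none passed the adjusted test. Ech1 and Cyp4a14 turned sign when both low water kidneys were left out, at -0.035 and -0.048. Angptl4, the secreted inhibitor of lipoprotein lipase, had 58.2, 80.6, 106 and 64.5 RPKM in wild-type kidneys on bicarbonate and 35.8, 28.5, 52.8 and 64.5 RPKM in wild-type kidneys on water, with overlapping ranges.

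The same drinks were compared in mice without IRR. In IRR(-/-) mice, 0 of the 35 members passed the adjusted test, where 0.0232% of all genes did, and 3 members passed at an unadjusted p under 0.05, where 7.99% of all genes did. The sign was positive for 14 of the 35, against 53.3% of all genes, and the median log2 difference was -0.04, against 0.01 over all genes. This near-zero median was 0.02 with 20 of 35 positive without IRR(-/-) replicate 1 on water, and 0.05 with 24 of 35 positive after quantile normalization.

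Acaa1b, a peroxisomal 3-ketoacyl-CoA thiolase, had 98.2, 96.2, 97.8 and 94.5 RPKM in IRR(-/-) kidneys on bicarbonate and 188, 127, 124 and 151 RPKM in IRR(-/-) kidneys on water. The groups did not overlap, and the log2 difference was -0.59 ± 0.14 (SE, adjusted p = 0.301). Acsl1 had 229, 217, 256 and 231 RPKM in IRR(-/-) kidneys on bicarbonate and 183, 172, 162 and 193 RPKM in IRR(-/-) kidneys on water, again without overlap, a log2 difference of 0.39 ± 0.11 (SE, adjusted p = 0.323). Hadh, the 3-hydroxyacyl-CoA dehydrogenase of the mitochondrial spiral, had 270.1, 266, 272 and 261 RPKM in IRR(-/-) kidneys on bicarbonate and 322, 313, 298 and 322 RPKM in IRR(-/-) kidneys on water. Its groups did not overlap either, and the log2 difference was -0.23 ± 0.09 (SE, adjusted p = 0.507).

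Averaged over both genotypes, Acsl1 rose on bicarbonate, with a log2 difference of 0.44 ± 0.08 (SE, adjusted p = 0.0219 in limma). It was the 1 member of 35 past the threshold, where 0.44% of all genes tested passed. The call was lost without wild-type replicate 1 or 2 on bicarbonate, without IRR(-/-) replicate 2 or 3 on water, or without IRR(-/-) replicate 3 or 4 on bicarbonate, with log2 differences of 0.42 to 0.44 and adjusted p of 0.0517 to 0.0672. It was also lost without both low wild-type kidneys on water (adjusted p = 0.0738). The difference between the genotypes in their response was tested as an interaction, the response to bicarbonate in IRR(-/-) mice minus that in wild type. It passed for 0 of the 35 members, where 0.0155% of all genes passed, and 6 members had an unadjusted p under 0.05, where 8.19% of all genes did.

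The interaction was negative for 33 of the 35 members, against a positive sign in 53.4% of all genes, with a median of -0.30 against 0.02 over all genes. Without both low wild-type kidneys on water 29 of 35 were negative and the median was -0.13, and without wild-type replicate 3 on bicarbonate it was -0.19. With 1 library left out, 1 to 13 members had an unadjusted p under 0.05, the 1 without wild-type replicate 3 on bicarbonate, wild-type replicate 2 on water or IRR(-/-) replicate 1 on water, and the 13 without wild-type replicate 4 on water. All 5 haemoglobin and red cell genes were also negative in the interaction, with a median of -1.69 and 4 at an unadjusted p under 0.05, and their part in the result was not tested. All 4 groups enter this value, so it uses the same kidneys as the comparisons above. The 3 smallest p-values were those of Acaa1b, at -0.55 ± 0.20, Acaa2, the mitochondrial thiolase, at -0.55 ± 0.22, and Etfdh, the oxidoreductase that passes electrons to ubiquinone, at -0.38 ± 0.16 on the log2 scale (SE, adjusted p of 0.551, 0.565 and 0.575 in that order). Acaa2 had 232, 219, 229 and 227 RPKM in IRR(-/-) kidneys on bicarbonate and 272, 212, 206 and 254 RPKM in IRR(-/-) kidneys on water. In wild type it had 276, 298, 365 and 291 RPKM on bicarbonate and 180.2, 164, 283 and 262 RPKM on water, with the low pair below the rest. Etfdh had 104, 112, 119 and 113 RPKM in IRR(-/-) kidneys on bicarbonate and 129.9, 104, 103 and 134 RPKM on water, and in wild-type kidneys 128, 138, 150.0 and 129.9 RPKM on bicarbonate and 99.8, 91.5, 128 and 121 RPKM on water. Acot2, Vnn1, which encodes the pantetheinase vanin-1, and Etfb were the other 3 of the 6, at -0.86, -0.65 and -0.29.

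**Figure D4:**
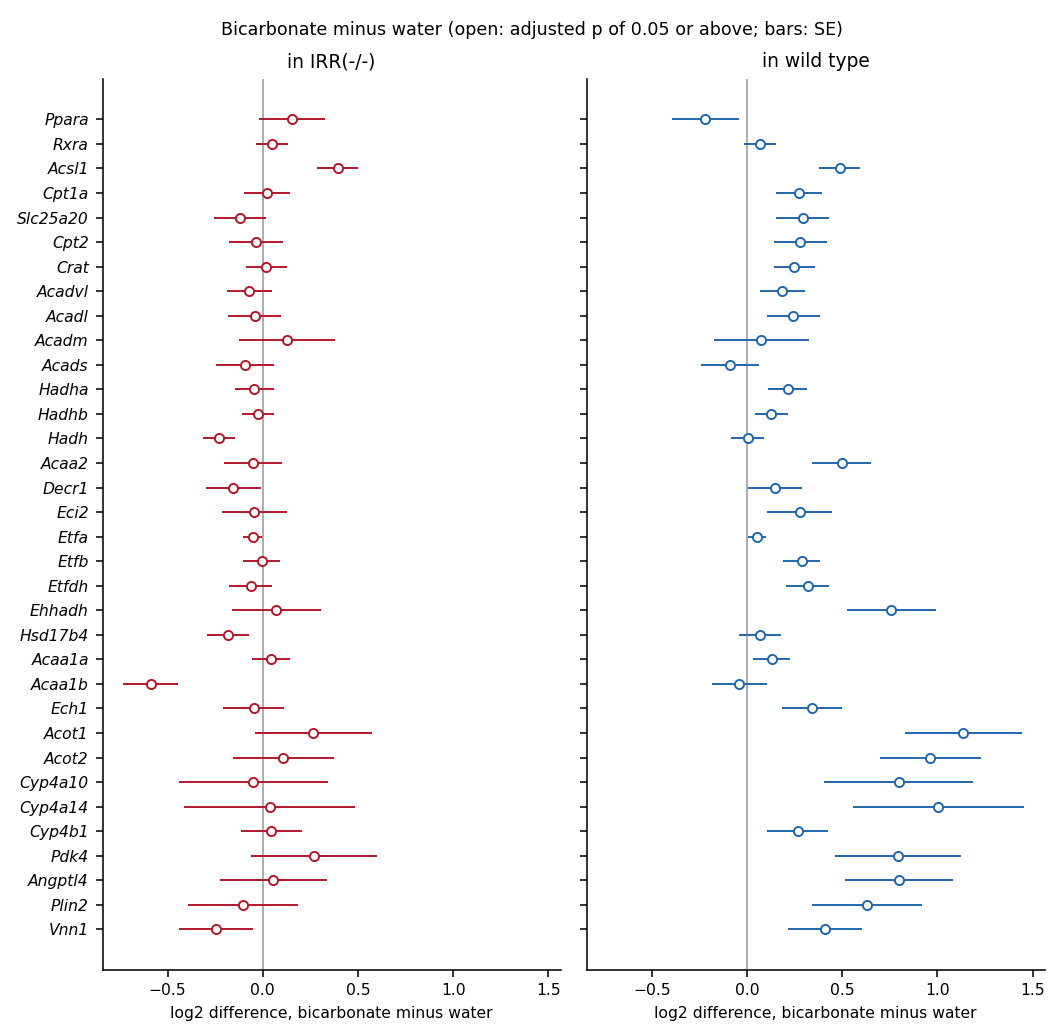
Log2 difference between bicarbonate and water with its SE for 34 genes, in IRR(-/-) mice on the left and in wild-type mice on the right, from the limma fit. Most wild-type points lie right of 0, with Acot1 and Cyp4a14 farthest out, IRR(-/-) points lie on both sides of 0, and no point in either panel passed the adjusted threshold.

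On water, the genotypes differed in 5 of the 35 members, 4 higher and 1 lower in IRR(-/-) kidneys, a share of members below the 21.9% of all genes tested that passed (10.1% higher and 11.8% lower). Etfb, the beta subunit of the electron transfer flavoprotein, Hadh, Cpt2 and Acot2 rose, and Acads fell. At an unadjusted p under 0.05, 13 members passed, 11 of them higher, where 34.3% of all genes passed and 15.1% were higher. The sign was positive for 26 of the 35, against 44.7% of all genes, and the median log2 difference was 0.17, against -0.05 over all genes. Without both low wild-type kidneys the count was again 5, with 2 higher and 3 lower, and the median was -0.03 with 16 of 35 positive. The median was 0.05 without wild-type replicate 2 alone.

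Etfb had 234, 179.7, 205 and 221 RPKM in IRR(-/-) kidneys on water and 134, 117, 127 and 138 RPKM in wild-type kidneys on water. The groups did not overlap, and the log2 difference was 0.70 ± 0.10 (SE, adjusted p = 0.000136). Its longest transcript is 893 bases and shares 68.0% of its 31-base words with the gene model Gm45233 in the GENCODE M21 annotation, so reads of the 2 may have been split. Hadh had 322, 313, 298 and 322 RPKM in IRR(-/-) kidneys on water, also above all 4 wild-type kidneys, which had 227, 209.8, 245 and 250.0 RPKM. Its log2 difference was 0.43 ± 0.09 (SE, adjusted p = 0.00231). On bicarbonate Hadh had 212, 221, 288 and 218 RPKM in wild-type kidneys, and replicate 3 alone reached the IRR(-/-) values given above. Etfb and Hadh kept their calls in every alternative run, each library left out included.

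Cpt2 had 185, 154, 156 and 169.8 RPKM in IRR(-/-) kidneys on water and 104, 108, 138 and 129 RPKM in wild-type kidneys on water, without overlap, a log2 difference of 0.48 ± 0.14 (SE, adjusted p = 0.0249). Acot2 had 34.9, 21.1, 24.0 and 27.6 RPKM in IRR(-/-) kidneys on water, overlapping at one end with the wild-type values given above, a log2 difference of 0.84 ± 0.27 (SE, adjusted p = 0.0348). Both calls were lost without the 2 low wild-type kidneys together, at 0.31 for Cpt2 and 0.36 for Acot2 (adjusted p = 0.256 and 0.392), and without either of them alone. A fit of the 2 water groups alone also ended the call of Acot2 (adjusted p = 0.0725). On bicarbonate, Cpt2 had 139, 162, 181 and 167 RPKM in IRR(-/-) kidneys and 119, 146, 197 and 129 RPKM in wild-type kidneys, and Acot2 had 22.9, 26.2, 35.9 and 30.4 RPKM in IRR(-/-) kidneys. The call of Cpt2 was also lost without IRR(-/-) replicate 1 or 4, and that of Acot2 without IRR(-/-) replicate 1, 3 or 4, with adjusted p of 0.0529 to 0.109 over these omissions. Acot2 also shares 37.5% of its 31-base words with other genes, 29.8% with Acot1, its neighbour on chromosome 12. Acads had 38.4, 43.1, 33.4 and 46.0 RPKM in IRR(-/-) kidneys on water and 61.7, 48.1, 62.9 and 62.4 RPKM in wild-type kidneys on water, without overlap, a log2 difference of -0.55 ± 0.15 (SE, adjusted p = 0.0188). It was lost without wild-type replicate 3 (adjusted p = 0.0501) or IRR(-/-) replicate 3 (adjusted p = 0.0614).

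The largest differences on water were those of the Cyp4a genes, which missed the threshold. They were 1.32 ± 0.45 for Cyp4a14 (SE, adjusted p = 0.0501) and 1.04 ± 0.39 for Cyp4a10 (SE, adjusted p = 0.074), and without both low wild-type kidneys they were 0.26 and 0.09. Cyp4a14 passed with median-of-ratios scaling (adjusted p = 0.0449), with a pseudocount of 1 (adjusted p = 0.045) and after removal of the trend with length and GC content (adjusted p = 0.0423). Without wild-type replicate 3 or 4, of the high pair, both genes passed, Cyp4a14 at 1.63 and 1.71 (adjusted p = 0.0228 and 0.012) and Cyp4a10 at 1.35 and 1.36 (adjusted p = 0.023 and 0.0218). Cyp4a10 shares 45.5% of its 31-base words with other genes, 37.0% with Cyp4a32, so reads of these genes may have been split. Ehhadh, at 0.53, was at -0.0034 without the 2 low wild-type kidneys. Slc25a20 had 76.7, 65.0, 74.3 and 88.5 RPKM in IRR(-/-) kidneys on water and 57.8, 47.2, 63.4 and 62.8 RPKM in wild-type kidneys on water, without overlap, at 0.40 ± 0.14 (SE, adjusted p = 0.0511). Vnn1, Decr1, which encodes a dienoyl-CoA reductase, and Crat were higher in sign at 0.52, 0.36 and 0.27, and Acadvl was lower in sign at -0.26. Acadvl passed without the 2 low kidneys, at -0.48 (adjusted p = 0.0114). The count of members called was 3 without wild-type replicate 1 or without IRR(-/-) replicate 1, 3 or 4, 9 without wild-type replicate 3 and 10 without wild-type replicate 4.

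On bicarbonate, 8 of the 35 members differed between the genotypes, 1 higher and 7 lower in IRR(-/-) kidneys, where 18.4% of all genes tested passed (9.03% higher and 9.36% lower). Etfb rose. Acadvl, Acads and Hadhb of the mitochondrial spiral, Etfa, the peroxisomal enzymes Acaa1b and Hsd17b4, and the thioesterase Acot1 fell. The sign was positive for 12 of the 35, against 48.1% of all genes, and the median log2 difference was -0.11, against -0.02 over all genes. Without wild-type replicate 3 the median was -0.01 and 17 of 35 were positive, and without IRR(-/-) replicate 1 the median was -0.06. The haemoglobin and red cell genes were lower in the same comparison, 5 of 5 in sign with a median of -1.40, of which Hba-a2 and Alas2 fell (adjusted p = 0.0132 and 0.0429). They summed to 234 to 612.5 RPKM in IRR(-/-) kidneys and 811.5 to 1550 RPKM in wild-type kidneys on bicarbonate. The 6 measured adipose markers were all lower in sign, at a median of -2.30 with 0 past the threshold and 1 at an unadjusted p under 0.05. The part of either in the differences of the members was not tested. The groups on bicarbonate and on water are different mice, but each group also enters the drink comparisons above, so the 4 sets of differences are not independent.

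Acadvl had 117, 115, 117 and 113 RPKM in IRR(-/-) kidneys on bicarbonate and 146, 168, 203 and 148 RPKM in wild-type kidneys on bicarbonate. The groups did not overlap, and the log2 difference was -0.51 ± 0.12 (SE, adjusted p = 0.00711), a call kept in every alternative run. Etfb had 224, 188, 223 and 199 RPKM in IRR(-/-) kidneys on bicarbonate and 164, 159.6, 174 and 134 RPKM in wild-type kidneys on bicarbonate, without overlap, a log2 difference of 0.40 ± 0.10 (SE, adjusted p = 0.00949), also kept in every alternative run. Etfa, its partner subunit, went the other way. It had 266, 246, 252 and 235 RPKM in IRR(-/-) kidneys on bicarbonate and 278, 284, 288 and 286 RPKM in wild-type kidneys on bicarbonate, without overlap, a log2 difference of -0.19 ± 0.05 (SE, adjusted p = 0.0141). The difference of Etfa was -0.11 (adjusted p = 0.109) after removal of a trend with transcript length and GC content. On water, where neither Acadvl nor Etfa passed, Acadvl had 124, 114, 117 and 129 RPKM in IRR(-/-) kidneys and 129.9, 119, 167 and 170.3 RPKM in wild-type kidneys, and Etfa had 249.6, 260.0, 264 and 262 RPKM in IRR(-/-) kidneys and 279, 262, 278 and 277 RPKM in wild-type kidneys.

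Acads had 45.3, 40.1, 31.7 and 34.1 RPKM in IRR(-/-) kidneys on bicarbonate and 44.2, 48.3, 62.3 and 68.6 RPKM in wild-type kidneys on bicarbonate, with 1 kidney of each group in the range of the other. Its log2 difference was -0.55 ± 0.15 (SE, adjusted p = 0.0213), close to that on water. Hadhb had 192, 164, 187 and 159 RPKM in IRR(-/-) kidneys on bicarbonate and 203, 202, 246 and 208 RPKM in wild-type kidneys on bicarbonate, without overlap, a log2 difference of -0.29 ± 0.09 (SE, adjusted p = 0.0284). On water Hadhb had 196, 163, 167 and 188 RPKM in IRR(-/-) kidneys and 199, 180.5, 203 and 201 RPKM in wild-type kidneys, and did not pass. Its partner subunit Hadha did not pass, with 154 ± 8.32 RPKM in IRR(-/-) kidneys and 161 ± 25.8 RPKM in wild-type kidneys on bicarbonate (SD, n = 4 each).

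Acaa1b had no more than 98.2 RPKM in IRR(-/-) kidneys on bicarbonate and 119, 120.2, 177 and 125 RPKM in wild-type kidneys on bicarbonate, a log2 difference of -0.46 ± 0.14 (SE, adjusted p = 0.0364). On water Acaa1b had 128, 117, 154 and 153 RPKM in wild-type kidneys, beside the IRR(-/-) values given above. It shares 45.7% of its 31-base words with Acaa1a, which lies near it on chromosome 9, was also lower in sign (-0.22) and did not pass, so a split of reads between the 2 thiolases cannot be told apart from a difference of one. Hsd17b4 had 106 RPKM in each of the 4 IRR(-/-) kidneys on bicarbonate, below the 121 to 154 RPKM of the wild-type kidneys on bicarbonate, a log2 difference of -0.35 ± 0.11 (SE, adjusted p = 0.0402). Acot1 had 24.3, 25.1, 31.5 and 23.7 RPKM in IRR(-/-) kidneys on bicarbonate, below all 4 wild-type kidneys on bicarbonate given above, a log2 difference of -0.99 ± 0.31 (SE, adjusted p = 0.0377). It was the largest of the 8 differences, and Acot1 shares 22.2% of its 31-base words with other genes, 20.2% with Acot2. On water Acot1 had 27.5, 18.0, 14.2 and 30.8 RPKM in IRR(-/-) kidneys, overlapping with the wild-type values given above.

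Removal of the trend with length and GC content also ended the calls of Hadhb (-0.22, adjusted p = 0.183), Hsd17b4 (-0.31, adjusted p = 0.0714) and Acot1 (-0.92, adjusted p = 0.0553). A fit of the 2 bicarbonate groups alone ended those of Acads, Hadhb and Etfa (adjusted p = 0.0514, 0.0652 and 0.0599), and a variance model with no trend ended that of Hsd17b4 (adjusted p = 0.0539). Apart from Acadvl and Etfb, each of the 8 calls was lost without some library. Hsd17b4 lost its call without 7 of the 8 libraries compared, each in turn (all but wild-type replicate 1), Acot1 without 6 of them (all but wild-type replicate 4 and IRR(-/-) replicate 3), and Acaa1b without 5 (wild-type replicate 3 and each IRR(-/-) replicate). Acads lost its call without wild-type replicate 3 or 4 or IRR(-/-) replicate 3 or 4, Hadhb without wild-type replicate 3 or IRR(-/-) replicate 2 or 4, and Etfa without IRR(-/-) replicate 4 (adjusted p = 0.0507). Over these omissions the highest adjusted p was 0.104, for Hsd17b4. Without wild-type replicate 3 the log2 differences were -0.22 for Hadhb, -0.33 for Acaa1b, -0.29 for Hsd17b4 and -0.77 for Acot1, none past the threshold. The count of members called was 4 without that library, 5 without IRR(-/-) replicate 1 or 3, 4 without IRR(-/-) replicate 2 and 2 without IRR(-/-) replicate 4. Acaa2, Etfdh, Acaa1a and Hadh had an unadjusted p under 0.05, at -0.43, -0.29, -0.22 and 0.20, as did the 8 called members, and 31.4% of all genes did.

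**Figure D5:**
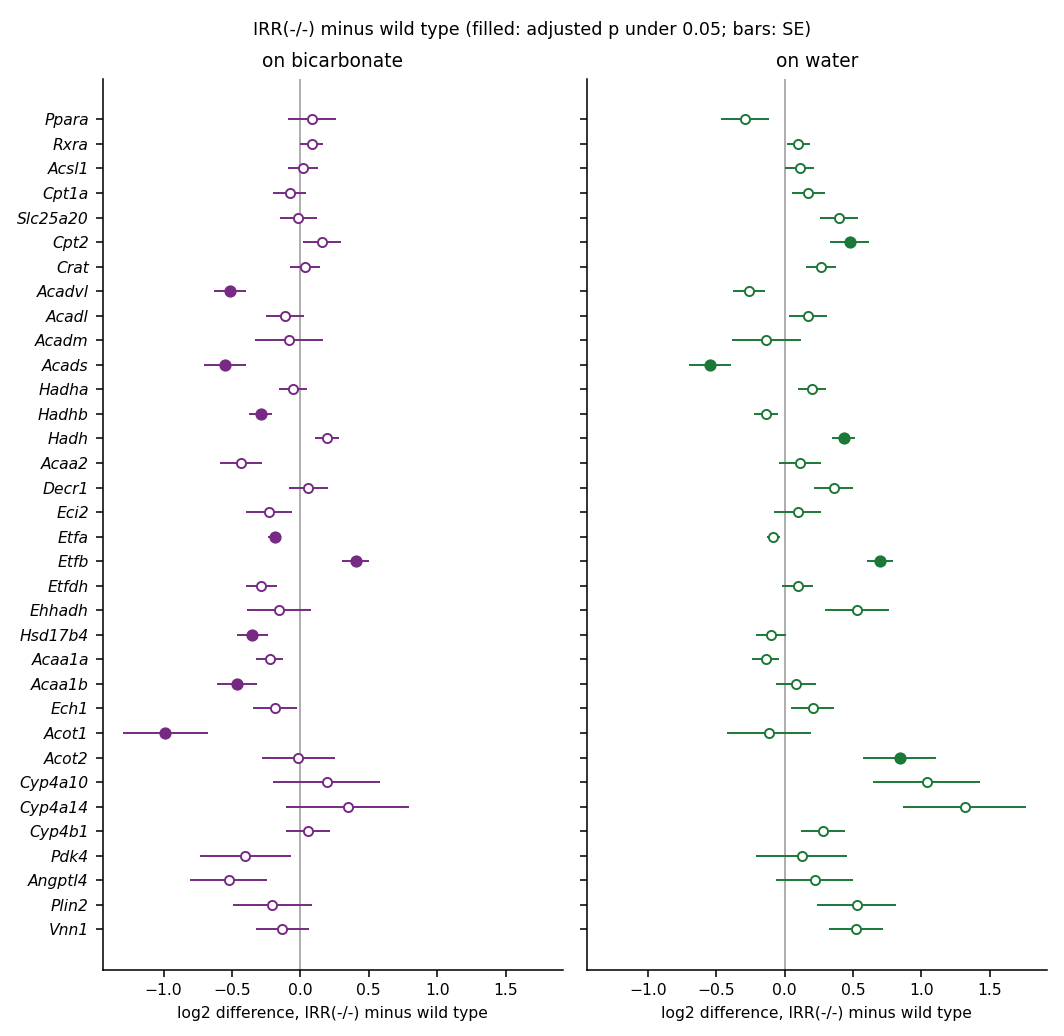
Log2 difference between IRR(-/-) and wild-type kidneys with its SE for 34 genes, on bicarbonate on the left and on water on the right, from the limma fit; filled points passed an adjusted p of 0.05. Etfb is filled right of 0 and Acads filled left of 0 in both panels, and the Cyp4a genes have the largest differences and the longest bars on water.

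Other genes of the pathway were taken from 8 lists with 109 measured genes in all, chosen, as the 35 were, with earlier results of these data known. Bicarbonate moved 0 of the 109 past the threshold in IRR(-/-) mice and 0 in wild-type mice, where 0.0232% and 0.139% of all genes passed. At an unadjusted p under 0.05 there were 15 in IRR(-/-) mice, or 13.8% beside 7.99% of all genes, and 31 in wild-type mice, or 28.4% beside 12% of all genes. The 31 in wild-type mice went in both directions. The median log2 difference of the 109 genes was 0.03 in wild-type mice, against 0.28 for the 35 members, and -0.03 in IRR(-/-) mice. Averaged over both genotypes, 1 of the 109 passed, or 0.917% beside 0.44% of all genes. Me1, the cytosolic malic enzyme that supplies NADPH for fatty acid synthesis, fell, at -0.23 ± 0.05 (SE, adjusted p = 0.0479). Genotype moved 20 of the 109 on bicarbonate, 8 higher and 12 lower in IRR(-/-) kidneys, a share of 18.3% that stands beside the background of 18.4%. On water it moved 32, 16 higher and 16 lower, a share of 29.4% beside a background of 21.9%. Calls over all genes on water were 2833, and 1798 without both low wild-type kidneys. The part of those 2 kidneys in the 32 calls was not tested. The same backgrounds, 18.4% on bicarbonate and 21.9% on water, stand beside the counts of each list below.

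In ketone body metabolism 2 of 6 genes passed between the genotypes on bicarbonate, both lower in IRR(-/-) kidneys, and 4 of 6 on water, 3 lower and 1 higher. Acat1, the mitochondrial acetoacetyl-CoA thiolase, fell, with log2 differences of -0.47 on bicarbonate and -0.82 on water. Oxct1, which activates acetoacetate for use as fuel, fell too, at -0.31 and -0.55, and Bdh2 fell on water, at -0.48. Among 20 other peroxisomal lipid genes, 4 fell on bicarbonate and none rose, and on water 3 fell and 3 rose. Scp2, a thiolase and sterol carrier, fell, at -0.77 and -0.67 in that order of drinks, Abcd3, a transporter of the peroxisomal membrane, fell, at -0.52 and -0.63, Pex19, a chaperone for peroxisomal membrane proteins, fell on bicarbonate, at -0.33, and Hacl1, the lyase of alpha-oxidation, rose on water, at 0.52.

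Among 20 other acyl-CoA synthetases, dehydrogenases and carnitine genes, 5 passed on bicarbonate, 2 higher and 3 lower, and 7 on water, 3 higher and 4 lower. Ivd, the isovaleryl-CoA dehydrogenase of leucine breakdown, fell, at -0.59 on bicarbonate and -1.02 on water, and Acad8, the isobutyryl-CoA dehydrogenase of valine breakdown, fell, at -0.34 and -0.47. Mlycd, which removes the malonyl-CoA that blocks Cpt1a, fell on bicarbonate, at -0.39, and Acsl5, another synthetase, fell on water, at -0.33. Both Ivd and Acad8 feed their electrons to the flavoprotein whose subunits are Etfa and Etfb. Among 10 genes of fatty acid uptake and binding, 1 passed on bicarbonate and 3 on water. Fabp3, the heart-type binding protein, rose on both drinks, at 0.31 and 0.44, Fabp1 rose on water, at 2.43 ± 0.55 (SE, adjusted p = 0.0059), with the 2 low wild-type kidneys at 2.59 and 4.24 RPKM, and Fabp5 fell on water, at -0.60.

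Among 13 genes of lipid droplets and triglyceride breakdown, 2 passed on bicarbonate and 1 on water. Cideb, a droplet protein, rose, at 0.60 on bicarbonate and 0.50 on water, and Hilpda, an inhibitor of droplet lipolysis, fell on bicarbonate, at -0.93. Of 11 other nuclear receptors and cofactors, 2 passed on bicarbonate, both higher, and 3 on water, 1 higher and 2 lower. Ncor1, a corepressor of nuclear receptors, rose, at 0.61 and 0.55, the coactivator gene Ppargc1a rose on bicarbonate, at 0.35, and Klf15 and Rxrb fell on water, at -0.59 and -0.33. Of 17 other genes of the fasting and PPAR alpha response, 2 rose on bicarbonate, and 5 rose and 1 fell on water. The thioesterase Acot13 was at 0.30 and 0.39, the pyruvate dehydrogenase kinase Pdk2 at 0.47 and 0.47, and Gk, the glycerol kinase, at -0.51 on water. Of 12 genes of fatty acid synthesis, 2 fell on each drink. They were Me1, at -0.40 and -0.54, and Acly, the ATP citrate lyase, at -0.30 and -0.34.

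Markers of other cell types that a slice could hold were set beside these results. The summed level of 6 measured adipose markers was 1.61 to 247 RPKM in IRR(-/-) kidneys on bicarbonate, 14.1 to 103 RPKM in IRR(-/-) kidneys on water, 14.0 to 148 RPKM in wild-type kidneys on bicarbonate and 24.8 to 254 RPKM in wild-type kidneys on water. It did not separate the low kidneys from the others, with 254 RPKM in wild-type replicate 1 and 24.8 RPKM in replicate 2. Cfd, Retn and Ucp1 of this list were each listed at 0 in 1 library. The 5 haemoglobin and red cell genes summed to 234 to 612.5 RPKM in IRR(-/-) kidneys on bicarbonate, 373 to 2068 RPKM in IRR(-/-) kidneys on water, 811.5 to 1550 RPKM in wild-type kidneys on bicarbonate and 501 to 1572 RPKM in wild-type kidneys on water. In IRR(-/-) mice all 5 were lower in sign on bicarbonate, at a median of -1.14 with 4 at an unadjusted p under 0.05 and 0 past the threshold. In wild-type mice all 5 were higher in sign, at a median of 0.34 with 0 at that p. Of all genes tested, 7.99% were at that p in IRR(-/-) mice and 12% in wild-type mice.

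Kidney cell types were covered too. Averaged over both genotypes, 3 of the 14 proximal tubule markers, Slc13a3, Slc22a6 and Slc22a8, fell on bicarbonate, as did Slc13a3 within IRR(-/-) mice. Of all genes tested, 0.44% passed in the averaged contrast and 0.0232% within IRR(-/-) mice. Between the genotypes 2 of the 14 passed on bicarbonate, 1 higher and 1 lower in IRR(-/-) kidneys, and 6 on water, 3 higher and 3 lower. For these and the marker counts that follow, 18.4% of all genes passed on bicarbonate and 21.9% on water. Of 5 thick ascending limb markers, Umod fell in IRR(-/-) kidneys on both drinks, and their sum was 1068 to 1398 RPKM in IRR(-/-) kidneys and 1224 to 1582 RPKM in wild-type kidneys. Of 6 distal tubule and collecting duct markers, Slc26a4 fell on both drinks, at -1.07 on bicarbonate and -0.99 on water, and their sum was 434 to 644 RPKM in IRR(-/-) kidneys and 504 to 706 RPKM in wild-type kidneys. Of 5 podocyte markers, Podxl rose and Nphs1 fell on bicarbonate, and their sum was 105 to 124 RPKM over all 16 libraries. None of the 5 endothelial and 5 measured immune cell markers passed in any comparison, with sums of 154 to 215 and 24.6 to 41.9 RPKM, and the 1 measured adrenal marker was at 1.54 to 2.27 RPKM. The part of these markers in the differences of the members was not tested.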

How the data were processed

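RNA-seq of 1 kidney slice from each of 16 mice gave 1 library per mouse, grouped by the genotype and treatment that the labels give. The deposited table holds RPKM per gene, which the authors made from reads; the submitters' processing notes name Salmon 1.5.2 and edgeR 3.34.0, and the mouse builds GRCm39 and mm10. The annotation and gene lengths behind RPKM are not given in the sources used here. Counts were not used, so the depth is unknown and counting error is not stated.

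All 13430 gene IDs were paired with symbols through a GENCODE M21 table (GRCm38), which also gave transcript lengths and 31-base words. The 12943 genes that reached 0.5 RPKM in 4 or more libraries were tested, and 487 were not. Log2(RPKM + 0.1) values were fitted in limma 3.58.1 (R 4.3.3) with trended, robust empirical Bayes variance, 1 fit of 4 group means over 16 libraries and 12 residual degrees of freedom. Two-sided p-values were adjusted by Benjamini and Hochberg over all genes tested in a comparison, with a threshold of 0.05. Differences on this scale understate changes of low genes. The procedure was tested on simulated data with independent normal noise for each gene and the same spread in every group. Such data hold no kidney in which many genes shift together, so that test does not cover the kidneys that stood apart here.

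Values in every library are given for members past the threshold in any comparison, for Ppara and for the 3 smallest p-values where no member passed, and from each pathway list at most 3 called genes per comparison. The members, lists, the averaged contrast and this rule were chosen with earlier results of these data known. Alternatives were other scalings, pseudocounts, filters and variance models, removal of a length and GC trend, a replicate block, fits of the compared groups alone and each library left out.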

Additional observations from a re-analysis of the deposited data

Results flagged for a closer look

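In groups of 4, a library was picked out where its gap to the nearest other, as a share of the group's range, exceeded the critical value of Dixon's test, which chance does in about 1 group in 20. This happened in 9 of the 140 gene and group sets. Wild-type replicate 3 on bicarbonate was high for 4 of them, with 245.8 RPKM of Hadhb, where the rest of its group had 202 to 208 RPKM, 288.4 RPKM of Hadh, against 212 to 221 RPKM, 187.0 RPKM of Eci2, against 114 to 117 RPKM, and 177.3 RPKM of Acaa1b, against 119 to 125 RPKM. Wild-type replicate 2 on water was low for Acads, at 48.11 RPKM against 61.7 to 62.9 RPKM, and for Etfa, at 261.9 RPKM against 277 to 279 RPKM. Wild-type replicate 4 on bicarbonate was low for Acsl1, at 179.8 RPKM against 247 to 254 RPKM. Eci1 was at 39.41 RPKM in IRR(-/-) replicate 4 on bicarbonate and at 6.069 RPKM in wild-type replicate 2 on bicarbonate, and was listed at 0 in the other libraries of both groups. The causes were not tested.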

How the results depend on the processing

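Of 1176 log2 differences of single members under the alternatives, over the 55 member and comparison pairs with an unadjusted p under 0.05, 1077 kept their direction and side of the threshold, 62 lost the call, 34 gained it and 3 turned sign. The 3 arose without both wild-type replicates 1 and 2 on water, at -0.035 for Ech1 and -0.048 for Cyp4a14 in the wild-type drink comparison and -0.0034 for Ehhadh between genotypes on water. That alternative, chosen after seeing the data, also gave 0 members called in the averaged contrast, and over all genes 6 for the drink in wild type, 1798 for genotype on water and 1 for the interaction.

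Members called for genotype on water were 9 with quantile normalization, 9 without the length and GC trend, 8 with the replicate block as well, and 3 to 10 with 1 library left out. Without that trend 4 were called on bicarbonate, 2 with the block as well, and 2 to 7 with 1 library left out. With 1 library left out they were 0 to 1 for the drink in wild type and in the averaged contrast. Over all genes, calls for the drink in wild type were 34 with quantile normalization, 5 without the trend, 2 with the replicate block, 3 with both, 5 in the 2 groups alone and 2 to 82 with 1 library left out. In the averaged contrast they were 36 with no trended variance, 29 with the block, 35 with block and trend removal and 17 to 95 with 1 library left out. For the interaction they were 1 with a pseudocount of 1, 0 with 0.01, 4 with no trended variance, 1 with array weights, 4 without the length and GC trend and 1 to 5 with 1 library left out. The causes were not tested.

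Deviations from the group mean correlated at -0.10 to 0.10 over 24 pairs of same-numbered libraries of different groups, 2 above 0.1. Over 72 pairs with different numbers they correlated at -0.14 to 0.12, 1 above 0.1. Whether the numbers pair the mice cannot be told from this, since a shared litter or day need not move most genes together. With a replicate block, 6 members passed for genotype on water and 7 on bicarbonate, where Acot1 lost its call (adjusted p = 0.0560) and Slc25a20 gained one on water (adjusted p = 0.0451). Having 4 kidneys per group and unknown depth limits the precision.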
